A study of Gallus gallus with 4 samples.

Results

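The breast muscle of heavy Xinghua (XH) birds was set against that of heavy Recessive White Rock (WRR) birds. WRR is a fast-growing broiler breed and XH a slow-growing native Chinese breed. The comparison takes 2 of the 4 RNA-seq libraries of the study, XHh and WRRh, by their labels alone and by no measured value. The other libraries, XHl and WRRl, came from light birds of the same breeds and are given beside them.

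All birds were females sampled at 7 weeks, and a library held the RNA of 3 birds mixed in equal shares, so that each condition was 1 pool. Birds were taken from the ends of the body weight range of their breed. The mean body weight, copied from the sample descriptions of the study, was 1064.0 g (± 11.1) in WRRh, 305.8 g (± 23.3) in XHh, 695.0 g (± 24.4) in WRRl and 207.6 g (± 11.1) in XHl, and the kind of error is not stated. The heavy XH pool was thus lighter than the light WRR pool, and "heavy" is a rank within a breed. Each breed came from its own supplier, so breed and supplier cannot be told apart. No treatment or transgene is given for any bird.

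Expression was deposited as FPKM, fragments counted on a gene and divided by its length and by the size of the library. With 1 library on each side no difference has a replicate error, and every comparison here is described by its size, without a p-value. The ratio used throughout is log2((XHh FPKM + 1)/(WRRh FPKM + 1)). The added 1 makes changes of weak genes look smaller than they are. A gene got a ratio if it was above 0 in both libraries and averaged 1 FPKM or more, and these were 10332 of the 17934 gene IDs. Of the others, 4692 were listed at 0 in both heavy libraries, 394 at 0 in WRRh only, 823 at 0 in XHh only, and 1693 had a mean under 1 FPKM. The number of reads is not in the tables, but the lowest values come in steps. Among 488 genes under 0.3 FPKM in both heavy libraries, 148 (30.3%) had the same ratio within 0.02 on the log2 scale, which sets 1 read in XHh at 1.16 times the FPKM of 1 read in WRRh. The depth of XHh was accordingly 0.863 times that of WRRh. Worked out in the same way, the depth of XHl was 1.79 times that of WRRl. Weak genes and listed zeros are thus compared across pairs of unlike depth.

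Skeletal muscle mass is set by the balance between protein synthesis and breakdown. In wasting or fasted muscle, transcription factors of the FOXO family and the glucocorticoid receptor switch on the muscle ubiquitin ligases FBXO32 (atrogin-1) and TRIM63 (MuRF1), which mark proteins for the proteasome, together with genes of autophagy. The same state moves fuel use from glucose to fat, with PDK4 closing the entry of pyruvate into the mitochondrion. Breast muscle of the chicken is made almost wholly of fast glycolytic fibres, with macrophages, fibroblasts, fat cells and vessels between them.

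The transcripts of PDK4, FOXO3 and FBXO32, all higher in XHh in the tables, are among those for which the study also designed qPCR primers. These 3 primer pairs are shown because they mark the stretch of each transcript that was chosen for assay, and the qPCR values were not analysed here. In the tables FBXO32 and PDK4 lie on chromosome 2 and FOXO3 on chromosome 3.
PDK4 forward: cccggatgctgatgaaccaacaca
PDK4 reverse: aagcttcagttctggagacgttaa
FOXO3 forward: tacttcaaggacaagggcgac
FOXO3 reverse: ccccctgctctttgtgtact
FBXO32 forward: ggcgacctcagcagcttttgtaa
FBXO32 reverse: cgctcttttgtgctccccttgt

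The skeletal muscle fibre list held 13 genes, of which 5 matched a gene ID, and these 5 were at like levels in both heavy libraries. The fast troponin entry TNNI2_CHICK was at 10221 FPKM in WRRh and 10559.5 in XHh, and the other 4 muscle fibre markers with a ratio (TNNT3, MYOZ1, DES and ACTN2) lay between 0.13 and 0.38. Summed over the 5 markers, the level was 21660 FPKM in WRRh, 23972 in XHh, 20614 in WRRl and 19726 in XHl. All 4 pools thus carried skeletal muscle transcripts, while these markers do not set breast apart from other skeletal muscle. The parvalbumin entry PRVM_CHICK, which matched no list symbol, was not level, at 15.3 FPKM in WRRh and 0.663 in XHh (-3.29). Of 10332 genes, 199 (1.93%) were at least 2-fold higher in XHh and 753 (7.29%) at least 2-fold lower, together 952 (9.21%). At least 4-fold were 29 genes higher and 55 lower, and at least 8-fold 7 higher and 13 lower. The gene nearest above the 2-fold limit was KLHDC5, at 1.0001, and the nearest below it ENSGALG00000023750, at 0.9999.

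The excess of lower genes depended on how the libraries were scaled. With median-of-ratios factors, which set the middle gene of both libraries equal, XHh moved up by 0.30 on the log2 scale against WRRh. The median ratio went from -0.25 to 0.01, and the split from 20.9% higher and 79.1% lower to 48.4% higher and 51.6% lower, with 359 genes (3.47%) higher and 382 (3.7%) lower, together 7.17%. All 199 higher genes of the deposited scaling and all 382 lower genes of the other scaling were called by both. A ratio near 0 therefore has no direction of its own here, and ratios are given on the deposited scale with a remark where a direction turns.

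**Figure D1:**
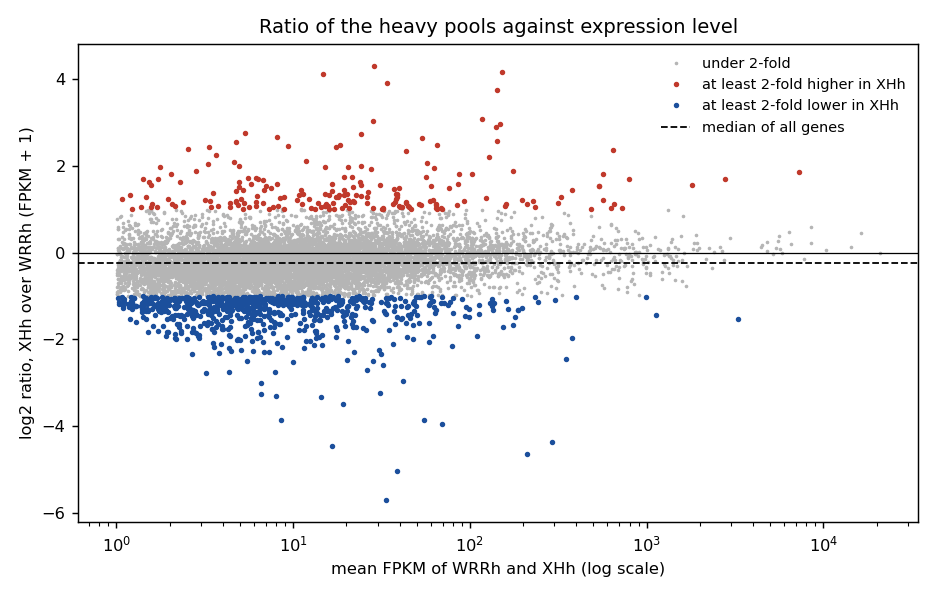
Log2 ratio of XHh over WRRh (FPKM + 1) against the mean FPKM of both libraries on a log axis, 1 point per gene (10332 genes), with the median of all genes (-0.25) as a dashed line. Genes at least 2-fold higher in XHh (199) and lower (753) are coloured, and the lower ones crowd at low levels.

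The share of lower genes was smaller, and that of higher genes larger, among strongly expressed genes. Among genes with a mean of 2 to 5 FPKM, 10.1% were at least 2-fold lower in XHh and 1.25% higher. Among genes of at least 100 FPKM, 3.72% were lower and 4.41% higher. The median ratio ran from -0.37 at 2 to 5 FPKM to -0.03 at 100 FPKM or more, so strongly expressed genes sat above the bulk of genes in XHh.

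Genes of muscle protein breakdown held some of the highest ratios. FBXO32 was at 23.9 FPKM in WRRh, 208.7 in XHh, 21.5 in WRRl and 235.9 in XHl, a ratio of 3.07 in the heavy pools and 3.40 in the light pools. KLHL38, a kelch protein of striated muscle, was at 4.82, 30.1, 2.99 and 33.9 FPKM in the same order, a ratio of 2.42. TRIM63 was far more abundant, at 374 FPKM in WRRh, 1210.2 in XHh, 373 in WRRl and 1127 in XHl, a ratio of 1.69. For all 3 genes both XH pools lay above both WRR pools, an order whose share over all genes is not given here. The ubiquitin-binding protein ZFAND5 (1.81), the ligases RNF207 (1.98) and FBXO30 (1.16) were also past 2-fold. FBXO30 shares its position in the tables with 3 other gene models, so its reads may be split among them. KBTBD5 (KLHL40), which in mammals stabilises thin filament proteins, went the other way, from 61.2 FPKM in WRRh to 20.4 in XHh, a ratio of -1.54. Of the 18 ligases and ubiquitin-binding genes with a ratio, 6 were higher, beside 1.93% of all genes, and 1 lower, beside 7.29%. The list median was only -0.04 (0.25 with median-of-ratios factors, so its sign turns).

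Of 15 proteasome subunits and assembly factors 1 was past 2-fold, a share near the 9.21% of all genes. It was the activator PSME4, at 23.0 FPKM in WRRh and 50.7 in XHh, a ratio of 1.11. The 14 other members lay between -0.64 and 0.33. Of 30 genes of autophagy and mitophagy 3 were higher, beside 1.93% of all genes, and none lower. Their share past 2-fold was near the 9.21% of all genes. FAM134B, a receptor for autophagy of the endoplasmic reticulum, was at 40.4 FPKM in WRRh, 245 in XHh, 56.9 in WRRl and 191 in XHl, a ratio of 2.57. The kinase ULK2, which starts autophagosome formation, had a ratio of 1.34, and BNIP3, which brings mitochondria to autophagosomes, one of 1.13. The median of the list was -0.09 (0.19 with median-of-ratios factors), beside -0.25 over all genes.

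**Figure D2:**
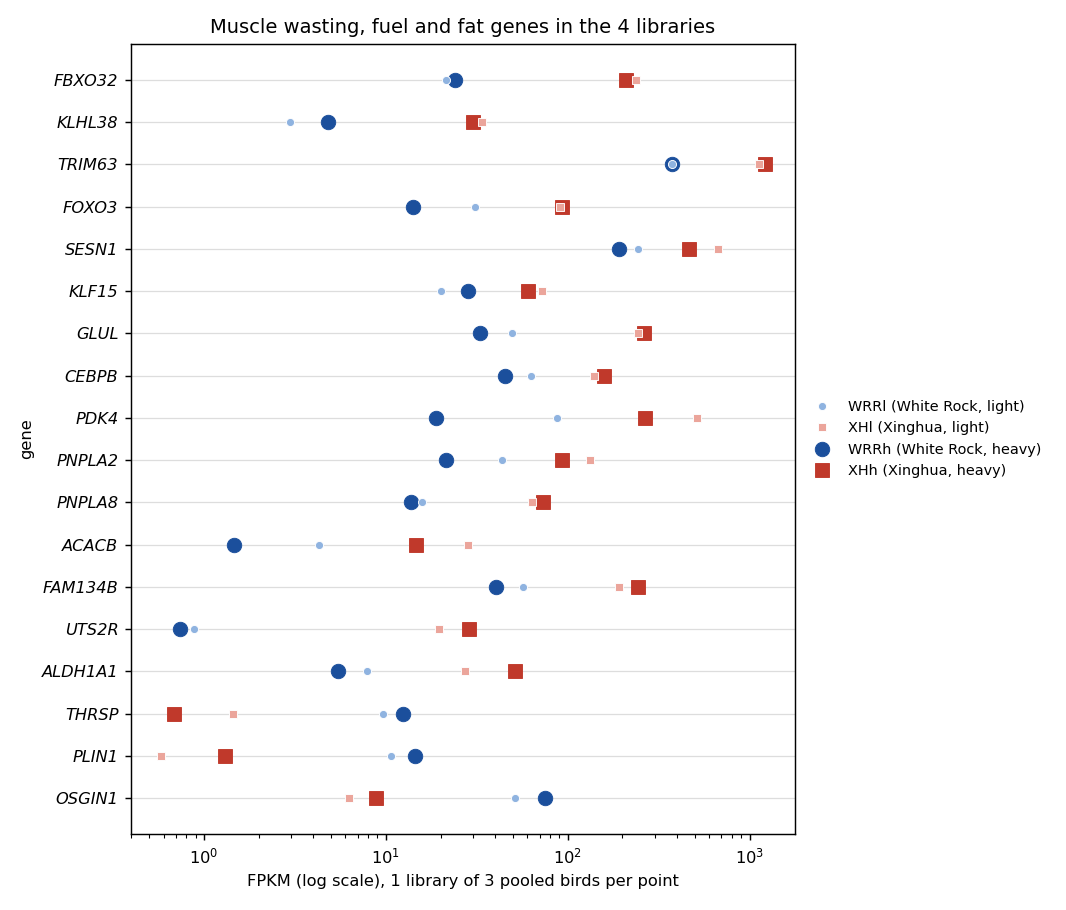
FPKM of 18 genes in the 4 libraries on a log axis, 1 point per library (3 pooled birds), with squares for XH and circles for WRR and large symbols for the heavy pools. In 15 genes, from FBXO32 to ALDH1A1, both XH pools lie to the right of both WRR pools, and in THRSP, PLIN1 and OSGIN1 to the left. The share of all genes with either order is not given here.

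Of 13 genes of the FOXO and glucocorticoid list 6 were at least 2-fold higher in XHh, beside 1.93% of all genes, and none lower. This list, like the others, was chosen with earlier results of these data and the paper's tables known. Its count is therefore a description only. FOXO3 was at 14.1 FPKM in WRRh, 92.7 in XHh, 30.8 in WRRl and 90.9 in XHl, a ratio of 2.63 in the heavy pools and 1.53 in the light pools. The XH pools were level with each other, while WRRh was the lowest of the 4. CEBPB, a transcription factor that glucocorticoids induce, was at 45.1 FPKM in WRRh and 159 in XHh (1.80). KLF15, a glucocorticoid target that directs amino acid breakdown, was at 28.4 and 60.6 FPKM (1.07). The sestrin SESN1, which restrains the growth kinase mTORC1, was at 191 and 462 FPKM (1.27), and the forkhead factor FOXK2 at 21.6 and 55.7 FPKM (1.33). GLUL, glutamine synthetase, was at 32.9 FPKM in WRRh and 261 in XHh (2.95), and its position is shared with a second model, ENSGALG00000023744, at 32.8 and 247 FPKM. The list median was 0.72 in the heavy pools and 1.08 in the light pools. The 7 members under 2-fold ran from SGK1 (-0.70), MAOA (-0.62), ERRFI1 (-0.41) and SESN3 (-0.33) to ZBTB16 (0.72).

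In the insulin and IGF pathway, 2 of 25 genes were past 2-fold, a share near the 9.21% of all genes. The insulin receptor substrate IRS2 was at 2.50 FPKM in WRRh and 6.94 in XHh (1.18), and IRS4 at 10.9 and 23.0 FPKM (1.01). IGFBP2, a carrier of IGF, was the lowest member at -0.96, and AKT1 (-0.18), MTOR (-0.13) and RPS6KB1 (0.07) lay close to the middle of all genes. Of 15 genes of amino acid stress and transport, CHAC1, which degrades glutathione, was at 74.4 FPKM in WRRh, 277 in XHh, 42.3 in WRRl and 409 in XHl (1.88), and the amino acid carrier SLC43A2 was also higher (1.47). ALDH18A1, an enzyme of proline synthesis, was lower (-1.29). The 10 chaperones with a ratio held no gene past 2-fold, beside 9.21% of all genes. That list is too short for this count to say anything about it. The chaperone values ran from -0.71 for PDIA3 to 0.56 for BAG5.

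Of 15 genes for fat use 6 were at least 2-fold higher in XHh, beside 1.93% of all genes, and none lower. That list too was chosen with earlier results known, and the count is a description only. PDK4 was at 19.0 FPKM in WRRh, 265 in XHh, 87.1 in WRRl and 514 in XHl, a ratio of 3.73 in the heavy pools and 2.55 in the light pools. Within each breed the light pool exceeded the heavy pool, and both XH pools exceeded both WRR pools. The triglyceride lipase PNPLA2 was at 21.4, 92.7, 43.5 and 132 FPKM in WRRh, XHh, WRRl and XHl (2.07), an order like that of PDK4. The calcium-independent phospholipase PNPLA8 (2.33), the thioesterase ACOT11 (1.96) and the acyl-CoA synthetase ACSL4 (1.43) also exceeded 2-fold. DECR1, an enzyme for the oxidation of unsaturated fatty acids, was at 21.2 FPKM in WRRh, 43.6 in XHh, 48.5 in WRRl and 37.3 in XHl (1.01), so that WRRh was the library that stood apart. The list median was 0.53 in the heavy pools and 0.31 in the light pools. The other 9 members included MGLL (-0.96), a monoglyceride lipase, and ACSL5 (-0.59) and HADH (-0.39) of fatty acid activation and oxidation.

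Genes of fat synthesis split. ACACB, the acetyl-CoA carboxylase whose product holds back fatty acid entry into mitochondria, was at 1.47 FPKM in WRRh and 14.7 in XHh (2.67), and the phosphatidate phosphatase LPIN1 at 12.5 and 33.0 FPKM (1.33). THRSP, a thyroid-responsive regulator of fat synthesis in liver and fat cells, was at 12.5 FPKM in WRRh, 0.686 in XHh, 9.66 in WRRl and 1.45 in XHl (-3.0), with both XH pools lowest. SQLE, squalene epoxidase of cholesterol synthesis, was lower (-1.21) and FASN, fatty acid synthase, was at -0.85. PLIN1, the coat protein of fat droplets in fat cells, was at 14.5 FPKM in WRRh and 1.30 in XHh (-2.75). Among 6 fat cell markers PLIN1 and THRSP were lower, CIDEA was higher (1.07), and ADIPOQ lay at -0.04. The summed level of the fat cell markers was 137 FPKM in WRRh, 105 in XHh, 143 in WRRl and 105 in XHl, and its part in the ratios of PLIN1 and THRSP was not tested.

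UTS2R, the receptor for the vasoactive peptide urotensin 2, showed one of the highest ratios. Its level was 0.742 FPKM in WRRh, 28.8 in XHh, 0.878 in WRRl and 19.5 in XHl, a ratio of 4.10. ALDH1A1, which makes retinoic acid, was at 5.45, 51.4, 7.93 and 27.3 FPKM (3.02), and GATM, the first enzyme of creatine synthesis, at 45.5, 212, 62.9 and 188 FPKM (2.19). In all 3 genes both XH pools lay above both WRR pools. The share of all genes with this order is not given here, so the order is a description only. The replication-dependent histone entry H2B5_CHICK (3.91) was high as well, together with the uncharacterised F1NN64_CHICK (4.15) and ENSGALG00000019454 (4.30), for which the files give no name. PRKAA2, the catalytic subunit of the energy sensor AMPK, was lower (-1.17), but under 2-fold with median-of-ratios factors (-0.88).

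Genes of the respiratory chain and the cytosolic ribosome differed less than those of fat use. Of 30 respiratory chain genes and 16 cytosolic ribosomal proteins none was past 2-fold, beside 9.21% of all genes. With median-of-ratios factors 1 respiratory chain gene was higher, beside 3.47% of all genes. The list medians were -0.02 and -0.16 (0.28 and 0.14 with median-of-ratios factors, so both signs turn). Of 14 genes of glycolysis and glycogen, PFKFB3 (-1.16) and the heart-type lactate dehydrogenase LDHB (-1.02) were lower, beside 7.29% of all genes, and none was higher. Neither was past 2-fold with median-of-ratios factors. A further 6 members were listed at 0 in both heavy libraries and had no ratio.

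Genes of the fast sarcomere were on the higher side. Of 19 such genes 3 were higher, beside 1.93% of all genes, and none lower. Their median was 0.38 beside -0.25 over all genes. The list is strongly expressed, with a sum of 25793 FPKM in WRRh. Among all genes of at least 100 FPKM the median was -0.03 and 4.41% were higher. The part of expression level in the list values was not tested. TPM2, beta-tropomyosin, was at 1306 FPKM in WRRh, 4223 in XHh, 1029.7 in WRRl and 1418 in XHl (1.69), so XHh alone stood high. Among 12 slow, cardiac and embryonic sarcomere genes 4 were higher, beside 1.93% of all genes, and 1 lower, beside 7.29%. The higher ones were the slow regulatory light chain MYL2 (2.48), the slow-fibre protein MYOZ2 (2.04), the cardiac myosin-binding protein MYBPC3 (1.51) and the slow light chain MYL3 (1.33). With a minimum mean of 5 FPKM 1 of 6 was higher, and with a pseudocount of 5 it was 1 of 12. The median of this list was -0.16 (0.10 with median-of-ratios factors, so its sign turns). Its summed level was 9098 FPKM in WRRh and 7955 in XHh. MYL2 was at 4.88 FPKM in WRRh, 31.8 in XHh, 6.12 in WRRl and 30.7 in XHl, and both XH pools were high. ACTC1, the cardiac actin that embryonic skeletal muscle also makes, was at 267 FPKM in WRRh, 82.9 in XHh, 391 in WRRl and 387 in XHl (-1.67), with XHh alone low. Slow troponin TNNI1, at 3.16 FPKM in WRRh and 1.43 in XHh, had a ratio of -0.77.

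Among 16 myogenic regulators, 2 were higher, beside 1.93% of all genes, and 4 lower, beside 7.29%. MYOD1, the master regulator of muscle identity, was at 119 FPKM in WRRh, 278 in XHh, 113 in WRRl and 314 in XHl (1.22), and SMYD1, a myosin chaperone methyltransferase, at 132, 286, 128 and 265 FPKM (1.12). HDAC9 (-1.38), XIRP1 (-1.15), the stretch-responsive ANKRD1 (-1.09) and ID2 (-1.04), an inhibitor of myogenic factors, were lower. With median-of-ratios factors HDAC9 alone of these 4 stayed past 2-fold lower.

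Among the genes with the lowest ratios were the immunoglobulin entries and several genes on none of the lists. Osteopontin SPP1 was at 32.6 FPKM in WRRh, 0.546 in XHh, 377 in WRRl and 0.619 in XHl, a ratio of -4.44 in the heavy pools and -7.87 in the light pools. The protease inhibitor CSTA was at 103, 6.24, 426 and 7.09 FPKM in the same order (-3.85), and LOC420301, which the files do not annotate further, at 66.8, 0.303, 267 and 0.428 FPKM (-5.70). For SPP1 and LOC420301 both XH pools were under 1 FPKM, while CSTA was low but clearly measured in them. In each of these 3 genes the WRR pools were high and far from each other. The immunoglobulin light chain entry LAC_CHICK was at 556 FPKM in WRRh and 26.3 in XHh (-4.35) and the immunoglobulin joining chain IGJ at 131 and 7.61 FPKM (-3.93). LAC_CHICK shares its position with 5 further gene models, among which its reads may be split.

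Markers of macrophages and other myeloid cells were lower in XHh in 9 of 11 cases, beside 7.29% of all genes, with a median of -1.55. With median-of-ratios factors 6 were lower, beside 3.7% of all genes, with a median of -1.28. The oxidase subunit CYBB was at 6.98 FPKM in WRRh and 0.619 in XHh (-2.30), the integrin ITGB2 at 22.7 and 5.16 (-1.95), and complement C1QA at 27.9 and 7.41 (-1.78). LAPTM5, a lysosomal membrane protein of blood cells, was at 66.5 FPKM in WRRh, 20.9 in XHh, 145 in WRRl and 29.1 in XHl (-1.62). The study's own qPCR of the same RNA put LAPTM5 the opposite way, higher in XHh than in WRRh. For PDK4 and FOXO3 that qPCR was also higher in XHh, as here. RPL29, the remaining gene of that check, was higher in XHh by qPCR but slightly lower by the paper's RNA-seq. The summed level of the list was 307 FPKM in WRRh, 123 in XHh, 769 in WRRl and 173 in XHl. WRRh therefore lay between WRRl and the XH pools, and none of the 11 markers had a lower ratio in the heavy pools than in the light pools. Their median heavy minus light ratio was 0.75, beside -0.004 over all genes. In bulk tissue, fewer cells of a type and less RNA per cell cannot be told apart.

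T cell and plasma cell markers followed the same order of libraries. Of 9 T cell markers 6 were lower, beside 7.29% of all genes, and none higher. With median-of-ratios factors 5 were lower, beside 3.7% of all genes. The CD3 chains CD3D (-2.29) and CD3E (-1.79) were among the lower ones. The sum of the T cell markers was 117 FPKM in WRRh, 35.1 in XHh, 245 in WRRl and 47.7 in XHl. Of 4 B and plasma cell markers with a ratio 3 were lower, and of 7 annexins and galectins 6, beside the same 7.29%. With median-of-ratios factors these counts were 3 and 4. The annexins and galectins were led by LGALS3 (-3.33), a galectin that macrophages secrete, and LGALS1 (-1.91). Their median was -1.35 in the heavy pools and -2.21 in the light pools, and each of the 7 lay less low in the heavy pools. The median heavy minus light ratio was 0.79 in these 7, beside -0.004 over all genes.

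Of 35 lysosome genes 9 were lower, beside 7.29% of all genes, and 3 higher, beside 1.93%. With median-of-ratios factors 5 were lower and 3 higher. LAMP3 (-2.07), the acid lipase LIPA (-1.73), the proton pump subunit TCIRG1 (-1.50) and the cathepsins CTSC (-1.33) and CTSS (-1.24) were lower, CTSS not past 2-fold with median-of-ratios factors (-0.95), and CTSS and LAPTM5 also stand on the macrophage list. The lysosomal phospholipase PLA2G15 (1.59), GNPTAB (1.35), which tags enzymes for the lysosome, and the cholesterol carrier NPC1 (1.15) were higher. The part of the lower macrophage sum in the lysosome counts was not tested.

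Extracellular matrix genes were lower in 14 of 40 cases, beside 7.29% of all genes, and higher in none. FNDC1 (-2.04), the microfibril protein MFAP5 (-1.48), the collagen hydroxylase P4HA2 (-1.42), fibronectin FN1 (-1.34), periostin POSTN (-1.23) and the lumican entry LUM_CHICK (-1.07) were among them. With median-of-ratios factors 8 members were lower and 2 higher, beside 3.7% and 3.47% of all genes. POSTN (-0.93) and LUM_CHICK (-0.78) were then under 2-fold. Fibroblast markers were lower in 6 of 11 cases on the deposited scale, beside 7.29% of all genes, and in 4 with median-of-ratios factors, beside 3.7%. The sum of the fibroblast list was 2312 FPKM in WRRh, 1328 in XHh, 2894 in WRRl and 1076 in XHl. Its part in the matrix counts was not tested. Of 22 redox genes 3 were lower, beside 7.29% of all genes. They were OSGIN1 (-2.96), which oxidative stress induces, the secreted superoxide dismutase SOD3 (-1.63) and the GSTA1_CHICK entry (-1.40). Of 13 cell cycle genes CCND2 (-1.63), a cyclin of the start of the cycle, and RRM2 (-1.14), which makes nucleotides for DNA synthesis, were lower, beside 7.29% of all genes, and RRM2 was at -0.90 with median-of-ratios factors. Schwann cell and smooth muscle lists, of 6 and 7 genes with a ratio, held no member past 2-fold, beside 9.21% of all genes. Both are too short for that to say anything about them. Of 8 endothelial markers CLDN5 (-1.58) and SOX18 (-1.10, and -0.83 with median-of-ratios factors) were lower, beside 7.29% of all genes.

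**Figure D3:**
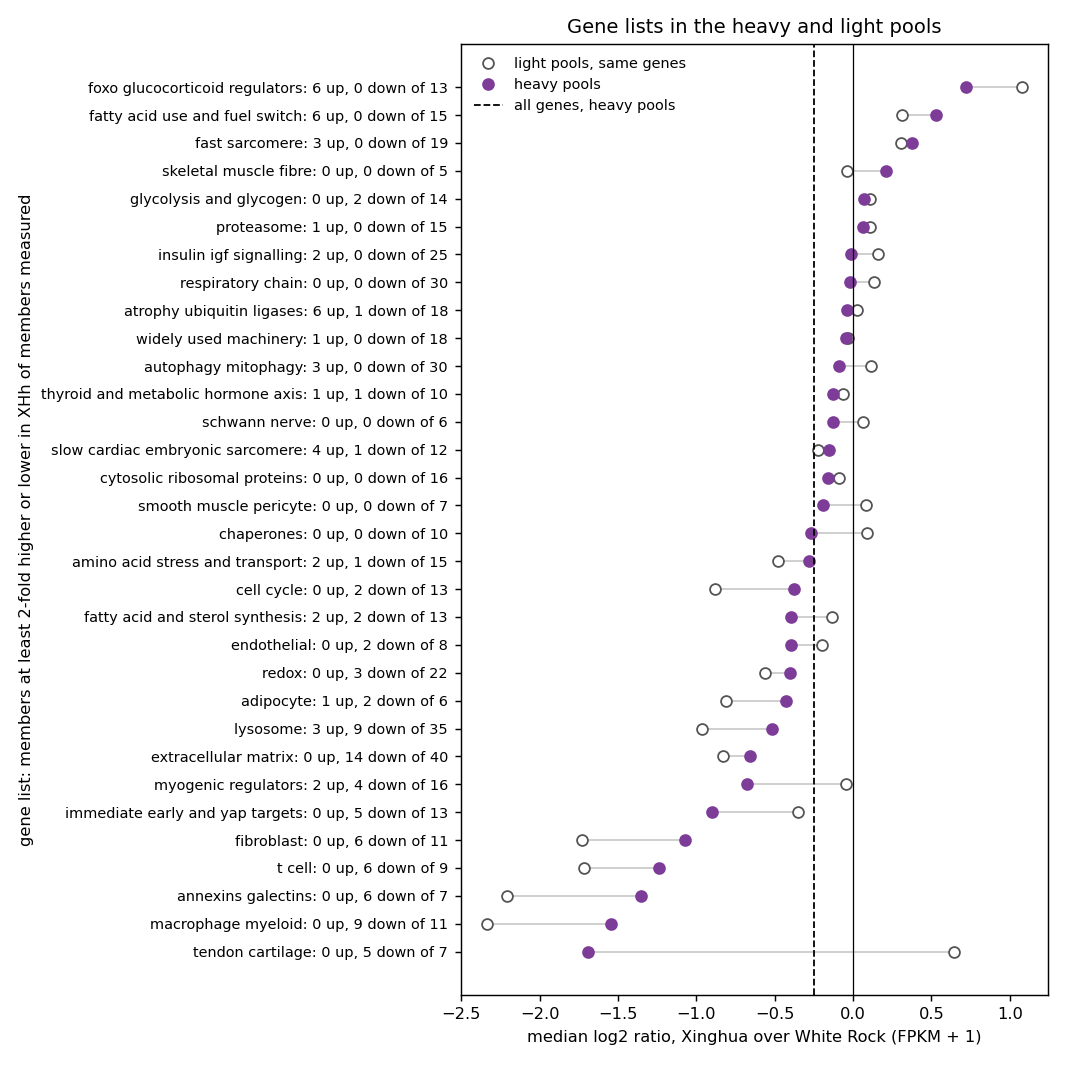
Median log2 ratio of XH over WRR (FPKM + 1) for the gene lists with at least 5 measured members, filled circles for the heavy pools and open circles for the same genes in the light pools, with the counts at least 2-fold higher or lower in XHh beside each name and the heavy median of all genes (-0.25) dashed. The FOXO list lies highest (0.72), and the tendon list (-1.69 heavy, 0.64 light) has its circles farthest apart. Its 2 medians can fall on different genes among its 7 members. Taken gene by gene, its median heavy minus light ratio was -0.62, smaller in size than the 0.79 of the annexins and galectins.

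Next, the ratio in the heavy pools was set against that in the light pools. Of the 199 genes higher in XHh, 198 were above 0 in all 4 libraries. Of these, 88 were at least 2-fold higher in XHl than in WRRl too, and 42 were 1.5-fold to 2-fold higher. A further 62 lay between under 1.5-fold higher and under 2-fold lower, and 6 were at least 2-fold lower. Of 738 lower genes above 0 in all 4 libraries, 434 were at least 2-fold lower in the light pools and 150 were 1.5-fold to 2-fold lower. A further 148 lay between under 1.5-fold lower and under 2-fold higher, and 6 were at least 2-fold higher. The light pools had 193 genes (1.83%) at least 2-fold higher and 1294 (12.3%) lower, of 10535, and 3.7% and 7.95% with median-of-ratios factors. The medians of the higher genes were 1.29 in the heavy and 0.89 in the light pools, and those of the lower genes -1.23 and -1.18. The heavy medians come from genes chosen by the heavy ratio and are a description only.

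**Figure D4:**
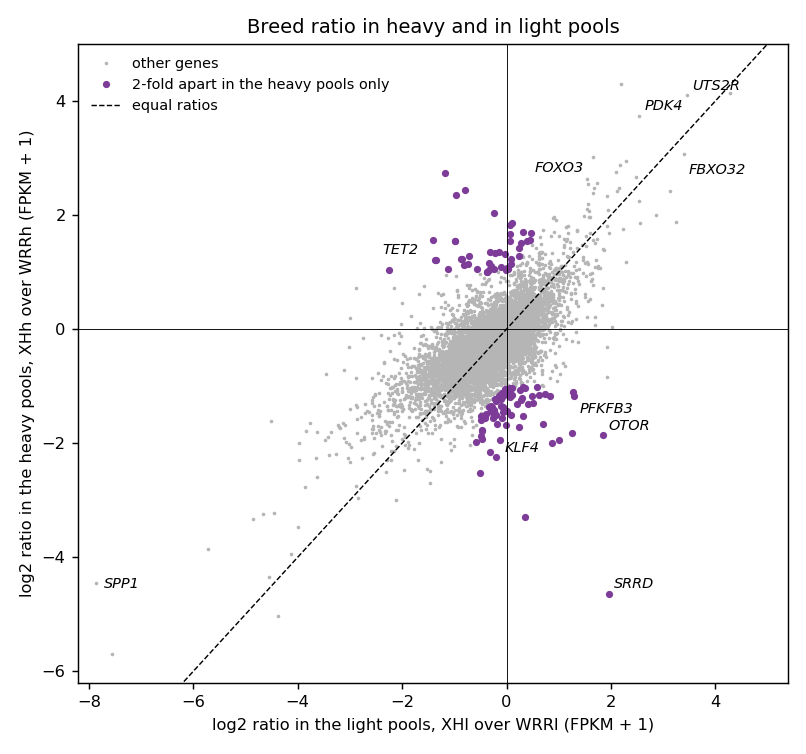
Log2 ratio in the heavy pools (XHh over WRRh) against that in the light pools (XHl over WRRl), 1 point per gene above 0 in all 4 libraries (10251 genes), with equal ratios as a dashed line. The 118 genes 2-fold apart in the heavy pools only lie above and below the cloud, and PDK4, FBXO32 and UTS2R are high in both pairs.

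A ratio was counted as belonging to the heavy pools only when it was at least 2-fold there, under 1.5-fold in the same direction in the light pools, and apart from the light ratio by at least 1 on the log2 scale. Of 10251 genes 118 (1.15%) met this, 44 (0.429%) higher in XHh and 74 (0.722%) lower. With median-of-ratios factors there were 53 (0.517%) and 52 (0.507%), together 1.02%, of which 41 and 47 were shared. The difference between the pairs has no replicate error and was not tested. The rule itself asks for a wide heavy pair and a narrow or reversed light pair, so the positions of the libraries that follow are a description only. Of the 44 higher genes WRRh was the lowest of the 4 libraries in 35 and XHh the highest in 33, and of the 74 lower genes WRRh was the highest in 61 and XHh the lowest in 65. Of the higher genes, the heavy and light pools of a breed were at least 2-fold apart in XH alone for 10, in WRR alone for 15, in both breeds for 2 and in neither for 17. Of the lower genes these counts were 18, 18, 6 and 32. Without a symbol in the tables were 18 of the higher and 27 of the lower genes, and 7 and 3 had models spanning under 300 bp.

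Of 7 tendon and cartilage markers with a ratio 3 were counted in the heavy pools only, beside 1.15% of all genes. OTOR, a cartilage protein, was at 12.6 FPKM in WRRh, 2.75 in XHh, 4.61 in WRRl and 19.3 in XHl, a ratio of -1.86 in the heavy and 1.85 in the light pools. FMOD, the collagen-binding fibromodulin, was at 15.2, 3.25, 5.70 and 12.4 FPKM in the same order (-1.94 and 1.00), and TNMD, the tendon membrane protein tenomodulin, at 8.35, 1.34, 3.47 and 7.18 FPKM (-2.0 and 0.87). In all 3, WRRh and XHl were high and XHh was lowest. COMP (-1.69 and -1.53) and CHAD (-1.26 and -1.32) did not share this, being lower in both XH pools. With median-of-ratios factors CHAD was under 2-fold (-0.97). In all, 5 of the 7 were lower in XHh, beside 7.29% of all genes. The summed level of the list was lower in XH in both pairs, at 278 FPKM in WRRh, 114 in XHh, 325 in WRRl and 165 in XHl. GREM1, an antagonist of bone morphogenetic proteins, took the order of the first 3 genes at lower levels, at 4.72, 0.623, 2.55 and 7.48 FPKM (-1.82 and 1.26).

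Red blood cell genes also parted the heavy pools. The alpha-D globin entry HBAD_CHICK was at 130 FPKM in WRRh, 28.2 in XHh, 83.6 in WRRl and 67.2 in XHl (-2.16 and -0.31), and CPOX, an enzyme of haem synthesis, at 31.5, 10.7, 19.0 and 14.3 FPKM (-1.48 and -0.39). Both were highest in WRRh and lowest in XHh. The beta-type globin entry HBRH_CHICK, which shares its position with another model, was at -1.29 and -0.39 (-0.99 in the heavy pools with median-of-ratios factors). All 4 members of the list with a ratio lay lower in the heavy than in the light pools. Their median heavy minus light ratio was -0.99, beside -0.004 over all genes. The sum of the list was 478 FPKM in WRRh, 172 in XHh, 345 in WRRl and 258 in XHl. Whether the pools held different amounts of blood was not tested.

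Immediate early genes and targets of the growth regulator YAP were lower in 5 of 13 cases, beside 7.29% of all genes, and higher in none, and 3 were lower with median-of-ratios factors. KLF4, a transcription factor of growth arrest, was at 70.9 FPKM in WRRh, 17.7 in XHh, 34.7 in WRRl and 31.6 in XHl (-1.95 and -0.13), and its relative KLF2 at 14.97, 6.77, 6.57 and 8.69 FPKM (-1.04 and 0.36). For KLF4 both light pools lay between the heavy ones, while for KLF2 WRRh alone stood high. The matricellular proteins CTGF (-2.05 and -0.997) and CYR61 (-1.63 and -1.13) were lower in both pairs. The list median was -0.90 in the heavy and -0.35 in the light pools, and 11 of its 13 genes were lower in the heavy than in the light comparison. The median heavy minus light ratio was -0.53 in the list, beside -0.004 over all genes. The inhibitory SMAD6, which restrains bone morphogenetic protein signalling, was also lower in the heavy pools only (-1.18 and -0.15). With median-of-ratios factors KLF2 (-0.77) and SMAD6 (-0.92) were under 2-fold and no longer counted.

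**Figure D5:**
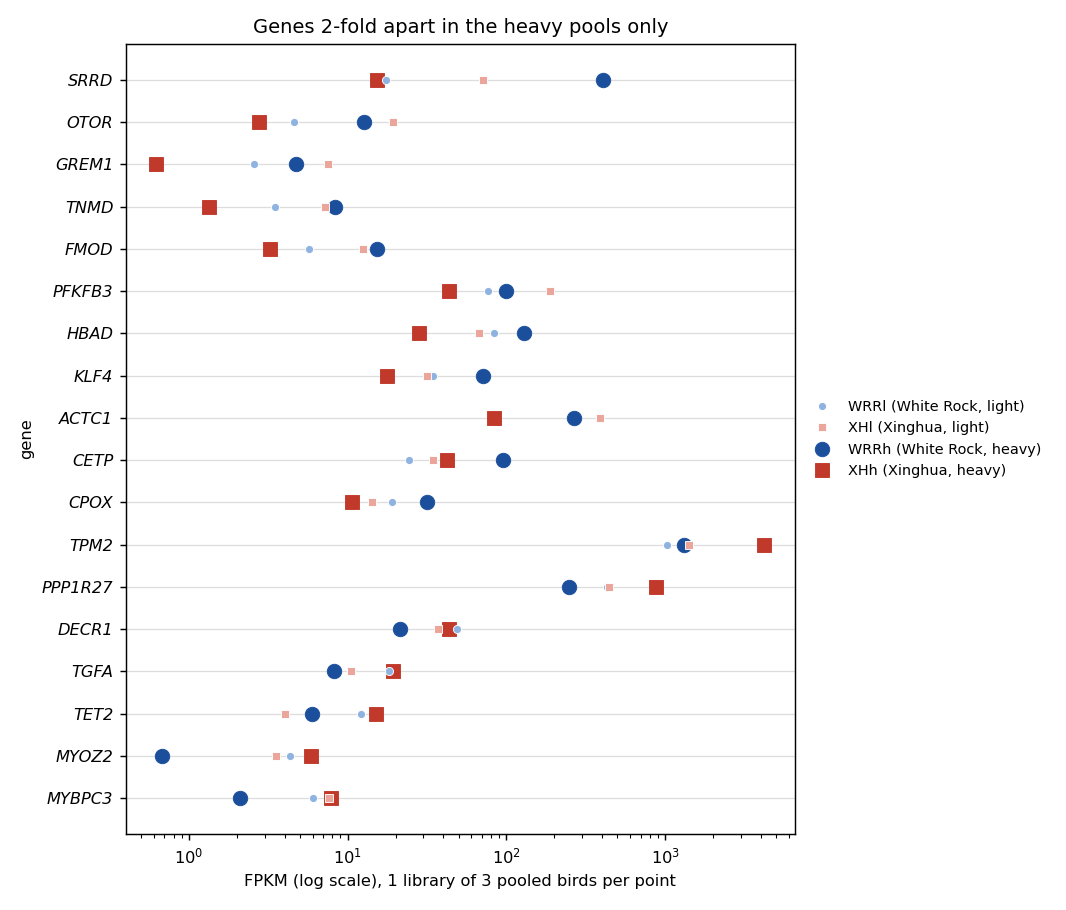
FPKM of 18 genes counted as 2-fold apart in the heavy pools only, on a log axis, 1 point per library (3 pooled birds), with squares for XH and circles for WRR and large symbols for the heavy pools. From SRRD to CPOX the large square (XHh) lies left of the large circle (WRRh), from TPM2 to MYBPC3 right of it, and the small symbols of the light pools lie closer together or in the other order.

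PFKFB3, which makes the activator of glycolysis fructose 2,6-bisphosphate, was at 98.8 FPKM in WRRh, 43.5 in XHh, 76.3 in WRRl and 189 in XHl, a ratio of -1.16 in the heavy and 1.30 in the light pools. The WRR pools were close, and the XH pools differed most. CETP, a plasma carrier of cholesterol esters, was at 95.8, 42.0, 24.5 and 34.5 FPKM (-1.17 and 0.48), with WRRh alone high. PFKFB3 and CETP were no longer counted among the genes of the heavy pools only with median-of-ratios factors. PRVM_CHICK, a parvalbumin entry, was at 15.3, 0.663, 3.87 and 5.195 FPKM (-3.29 and 0.35), with XHh lowest and WRRh highest. SRRD showed the largest difference between the pairs of all genes above 0 in the 4 libraries, at 404, 15.2, 17.5 and 71.0 FPKM (-4.64 and 1.96). The gene TFP11_CHICK at the same position in the tables stood at 10.5, 9.64, 10.4 and 11.9 FPKM, so the high WRRh value of SRRD was not shared by the model on top of it.

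Of the 44 genes higher in the heavy pools only, 4 stand on the sarcomere lists, TPM2, MYOZ2, MYBPC3 and MYL3. Those lists had 19 fast and 12 slow, cardiac and embryonic genes with a ratio. Over all genes 0.429% were higher in the heavy pools only. The 4 genes had light ratios under 1.5-fold, as the rule asks. MYOZ2, MYBPC3 and MYL3 averaged under 5 FPKM in the heavy pair. ACTC1, with a light ratio of -0.01, belonged to the lower genes. MYOZ2 was at 0.674 FPKM in WRRh, 5.91 in XHh, 4.33 in WRRl and 3.54 in XHl, and MYBPC3 at 2.09, 7.83, 6.08 and 7.63. In both genes WRRh stood apart from the other 3 libraries, whereas for TPM2 it was XHh, and TPM2 was not counted with median-of-ratios factors. PPP1R27, a regulatory subunit of protein phosphatase 1, was at 249 FPKM in WRRh, 880 in XHh, 428 in WRRl and 446 in XHl (1.82 and 0.06), with the light pools level and between the heavy ones. The growth factor TGFA (1.14 and -0.74), the muscle LIM protein FHL2 and the DNA demethylating enzyme TET2 (1.22 and -1.37) were counted as well. TET2 was at 5.92, 15.1, 12.1 and 4.05 FPKM, and the order of the breeds thus turned between the pairs.

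The ubiquitin ligases, the FOXO regulators and the autophagy genes held no gene of the heavy pools only, of 18, 13 and 30 with a ratio. With 1.15% of all genes counted, lists of this size are too short for that to say anything about them. Among the 15 genes of fat use DECR1 was the one member counted. By size, PDK4 and FOXO3 still had higher ratios in the heavy pools, by 1.19 and 1.10 on the log2 scale, and for both the lower level lay in WRRh (PDK4 19.0 against 87.1 FPKM in WRRl, FOXO3 14.1 against 30.8). FBXO32 (-0.32) and KLHL38 (-0.71) had somewhat lower ratios in the heavy pools than in the light ones, and TRIM63 differed by 0.10. The differences between pairs were not tested.

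Some genes were listed at 0 in 1 heavy library and expressed in the other, and got no ratio. At 0 in WRRh and at 5 FPKM or more in XHh were 33 genes, of which 10 were at 0 in WRRh alone of the 4 libraries. At 0 in XHh and at 5 FPKM or more in WRRh were 53 genes, of which 15 were at 0 in XHh alone. GSPT1, a translation termination factor that every cell uses, was listed at 0 in WRRh and at 55.9, 52.1 and 56.1 FPKM in XHh, WRRl and XHl, so a listed 0 is not read as absence. F1NH87_CHICK was listed at 0 in WRRh and XHl and at 25569 and 25532 FPKM in XHh and WRRl. Among muscle genes MYBPC1, the slow-type myosin-binding protein, was listed at 0 in WRRh, and at 21.7 FPKM in XHh, 5.35 in WRRl and 19.998 in XHl. MYO18A, an unconventional myosin, was listed at 0 in both WRR pools and at 46.6 and 43.6 FPKM in XHh and XHl. PLN, which inhibits the calcium pump, was at 20.5 FPKM in WRRh and listed at 0 in the other 3 pools, and its position overlaps other models. The matrix protease MMP7 was at 42.9 FPKM in WRRh and 145 in WRRl, listed at 0 in XHh and at 0.0869 in XHl. TTR, the thyroid hormone carrier transthyretin, was at 16.9 FPKM in WRRh, listed at 0 in XHh, and at 139 and 255 FPKM in WRRl and XHl.

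Among genes with a ratio, neighbours along a chromosome were at times both past 2-fold. Genes without a ratio were skipped and may lie between the members of a pair. Of 10301 neighbouring pairs with a ratio, 21 were both higher in XHh and 102 both lower, and 4 and 22 of these had overlapping models. Of single genes 1.93% were higher and 7.29% lower. How many pairs those shares alone would give was not worked out. With median-of-ratios factors all 21 and 43 of the 102 remained. FBXO32 (chromosome 2, 143695681 to 143720333) and KLHL38 (143748478 to 143753282) were such neighbours, with 28144 bp between them. SESN1 and FOXO3 on chromosome 3 were another such pair, with 161101 bp between them. ZFAND5 and ALDH1A1 on chromosome Z, SPSB1 and SLC25A33 on chromosome 21, and the histone entries H2B5_CHICK and H2B1_CHICK on chromosome 1 were further pairs. Among the lower pairs were the complement genes C1QA, C1QB and C1QC on chromosome 21, whose models overlap and of which C1QC was under 2-fold with median-of-ratios factors, CD3E and CD3D on chromosome 24, and FMOD and PRELP on chromosome 26, PRELP being under 2-fold with those factors. The build of these positions was not established.

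By chromosome, the share of genes at least 2-fold lower in XHh ranged from 3.72% on chromosome 12 (9 of 242) to 18.4% on chromosome 16 (7 of 38), among chromosomes with at least 30 genes read. With median-of-ratios factors the range was from 0% on chromosome 25 to 10.7% on chromosome 26, with 7.89% on chromosome 16, so the order of chromosomes depended on the scaling. Chromosome 16 carries the major histocompatibility complex of the chicken. The share of higher genes was 3.45% at most, on chromosome 22 (with median-of-ratios factors 5.26%, on chromosome 16), and the large chromosomes 1, 2 and 3 had 2.54%, 2.03% and 2.02%. On the Z chromosome, of which these female birds carry 1 copy, 2.26% were higher and 6.78% lower, close to the shares over all genes.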

How the data were processed

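RNA-seq of 4 pooled breast muscle libraries was read from 4 deposited tables, each with 2 libraries and 17934 gene IDs. The authors removed adaptor-bearing and low quality reads, aligned the rest with TopHat, and computed the deposited FPKM per gene. The submitters' processing notes name TopHat and galGal4 but no version of TopHat. The tables do not name the build of their positions. Their columns of log2 fold change, p-value and q-value, made by Cuffdiff from pairs of libraries, hold the study's own comparisons and were not used. Values were equal in the 2 tables of a library except where 1 table lists 0. The value above 0 was then taken (WRRl 15, XHh 11, XHl 43, WRRh 0 values).

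Log2(FPKM + 1) ratios were taken without a test, since each condition is 1 library. A ratio needed values above 0 in both libraries and a mean of at least 1 FPKM, and counted as called at 2-fold. Reads are not counted in the tables, so no interval is given. The calculation was run on simulated data, copies of the WRRh values without noise in which 200 genes were changed by set factors. That checks the arithmetic only, not how far calls from single pools can be trusted. The members, the gene lists and the naming rule were chosen with earlier results of these data and the paper's tables known. The 36 lists (23 of pathways, 13 of cell markers) hold 1065 genes, of which 553 matched exactly 1 gene ID by symbol, with the ending _CHICK of protein entry names left off, and 480 had a ratio (43 at least 2-fold higher, 81 lower). Of the lists not described in the report, the liver list had 2 members with a ratio (APOA1 lower at -1.44), and the satellite cell list 2 (VCAM1 lower at -1.05). With median-of-ratios factors VCAM1 was under 2-fold. The 18 genes listed under widely used machinery with a ratio had 1 past 2-fold, ETF1 (1.07), and a median of -0.04. Of 10 genes of the thyroid and metabolic hormone list UTS2R was higher and PRKAA2 lower.

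Named genes are the 25 largest ratios per direction at a mean of at least 5 FPKM, the 15 largest heavy-only differences per direction at that mean, list members, genes at 0 in 1 heavy library and at 10 FPKM or more in the other, genes 2-fold apart in opposite directions in the heavy and light pools, and adjacent pairs. KLHDC5, ENSGALG00000023750 and TFP11_CHICK were named after their values had been seen. The 10 alternatives changed the scaling between libraries (4 ways), the pseudocount (0.1 or 5), the minimum mean (5 FPKM or none), the use of 0 values and that of overlapping models, 1 at a time. None was added later. Software was Python 3.11.15, numpy 2.4.6, pandas 2.3.3 and matplotlib 3.10.9. The qPCR, siRNA and SNP experiments were not analysed here.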

Additional observations from a re-analysis of the deposited data

Results flagged for a closer look

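The results below are genes at least 2-fold apart between the breeds in the heavy pools and at least 2-fold apart the opposite way in the light pools, which held for 12 genes. With 1 library in each condition the difference was not tested, and a search for outlying replicates was not possible. Values are the heavy minus the light log2 ratio. It was -6.60 for SRRD, -3.72 for OTOR, -3.07 for GREM1, -2.94 for FMOD and -2.47 for PFKFB3, all lower in XHh than in WRRh and higher in XHl than in WRRl. The unnamed ENSGALG00000023479 took the same order at -2.37. The reverse order, higher in XHh and lower in XHl, gave 3.93 for F1NC59_CHICK, 3.29 for ENSGALG00000020044, 2.98 for the ID named SCARNA6, 2.59 for TET2, 2.57 for ENSGALG00000025636 and 2.17 for ENSGALG00000012182. Of these, F1NC59_CHICK, ENSGALG00000020044 and ENSGALG00000025636 have models under 300 bp.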

How the results depend on the processing

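With 1 library per condition no value has a replicate check, and leaving out a library leaves no comparison. No paired analysis was possible because each condition is 1 pool with 1 library. Depth per gene is not in the tables. Of the 352 named or called list genes none changed direction where it was tested. Pseudocounts and filters cannot turn a direction, and the scalings were applied to genes mostly chosen for ratios past 2-fold. That none turned is therefore a description only. With a minimum mean of 5 FPKM 91 of the 352 genes, and with overlapping models left out 71, were not tested. Under 2-fold were 99 with median-of-ratios factors, 108 with quantile normalization, 56 with upper quartile scaling, 8 with an equal sum of FPKM and 173 with a pseudocount of 5. The 50 largest ratios stayed past 2-fold in each, except that 36 of them remained once overlapping gene models were left out.

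The counts moved by over 1.5 times as follows, beside 199 genes higher and 753 lower, 44 and 74 in the heavy pools only, and 123 adjacent pairs. Median-of-ratios factors gave 359 higher and 382 lower. Quantile normalization gave 347 higher and 329 lower, 48 lower in the heavy pools only and 77 pairs. Scaling to an equal sum of FPKM gave 28 higher and 140 lower in the heavy pools only. A pseudocount of 0.1 gave 1509 genes apart, 1242 of them lower, 215 in the heavy pools only (76 higher, 139 lower) and 235 pairs. A pseudocount of 5 gave 322 apart (105 higher, 217 lower), 31 in the heavy pools only (12 higher, 19 lower) and 30 pairs. A minimum mean of 5 FPKM, which tests fewer genes, gave 614 apart, 455 lower, 74 in the heavy pools only, 44 of them lower, and 72 pairs. Keeping genes listed at 0, which adds genes, gave 222 in the heavy pools only (82 higher, 140 lower). For the scalings and pseudocounts the cause was not tested. The number of gene lists with a larger share of called genes than all genes was 23, and 20 to 26 under the alternatives.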
